A study of Bos taurus with 6 samples.

Results

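The genes described here were *ANKRD1*, *ANKRD2*, *ANKRD23*, *CSRP3*, *XIRP1*, *XIRP2*, *FHL1*, *FHL3* and *PDLIM3*, 9 of the 18010 genes listed in the files. They are ankyrin repeat, LIM domain and Xin genes of striated muscle that are known to respond to stretch. They were matched by gene name and were selected on measured values, since the difference between Luxi cattle and Shandong black cattle in these same animals was in view when they were chosen. Their differences between the breeds are therefore given as a description, with no p-value. The fit over all genes includes these 9. The number of them that it called is given only beside the number or share called over all genes, and supports nothing. No stretch or load was applied in the study, so the name of the group rests on earlier knowledge of these genes.

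RNA-Seq of the longissimus dorsi muscle was available for 3 Shandong black cattle (B1 to B3) and 3 Luxi cattle (L1 to L3), and the study asked which genes differ between the muscles of these breeds. Shandong black cattle are a beef breed with Japanese black cattle in its ancestry, and Luxi cattle are a local yellow breed. Every animal was 18 months old, healthy and untreated, each library came from a separate animal, and the breeds were obtained from different suppliers. Levels are gene FPKM (fragments per kilobase of transcript, scaled to the library), summed from the transcript values that the authors deposited, and no read counts were used.

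The libraries rested on 14.1 to 14.6 gigabases of aligned sequence in Shandong black cattle and on 17.52 to 17.99 gigabases in Luxi cattle. The skeletal muscle genes *ACTA1*, *CKM* and *MB* were at 1832 FPKM or more in every animal, as is usual for skeletal muscle. *XIST*, the RNA that silences an X chromosome in females, was between 4.83 and 14.0 FPKM in Shandong black cattle and was listed at 0, 0 and 0.207 in Luxi cattle, while the labels give no sex for the animals. The paper speaks of a Shandong black bull and describes Luxi cattle as the mother generation of the cross. By contrast, *XIST* was listed in all 3 Shandong black animals and at no more than 0.207 FPKM in Luxi cattle. Breed, supplier, library depth and this difference in *XIST* cannot be told apart.

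In a muscle fibre, the giant protein titin runs from the Z-disc to the middle of the sarcomere and carries passive tension. The ankyrin repeat proteins bind the elastic part of titin and can move to the nucleus, and the LIM and Xin proteins sit at the Z-disc, the actin filaments and the attachments of the fibre, where several of them link mechanical load to gene activity. *ANKRD2* and *CSRP3* are known as genes of slow, oxidative fibres, and *ANKRD1* is best known from heart muscle and from loaded or injured skeletal muscle.

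All 9 genes were expressed in every animal, from 10.9 FPKM for *ANKRD2* in L1 to 3309 FPKM for *CSRP3* in B3. In 4 of the 9, *ANKRD1*, *ANKRD2*, *CSRP3* and *XIRP2*, the breeds did not overlap and the Luxi values were the lower ones, which was the case for 9.13% of all 9781 genes tested. By limma on log2(FPKM + 1), where a call needs an adjusted p under 0.05 together with a log2 difference of 1 or more in size, 2 of the 9 (*ANKRD2* and *CSRP3*) were called, both lower in Luxi cattle. Neither was called without B1, B3 or L2, or when no filter on FPKM was set. *CSRP3* was also not called without B2. Over all genes tested, 2.57% were called, 1.02% lower and 1.54% higher in Luxi cattle. Because this contrast chose the genes, nothing is read from these counts. The median log2 difference (Luxi minus Shandong black) was -0.98 over the 9 genes and 0.13 over all genes.

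**Figure D1:**
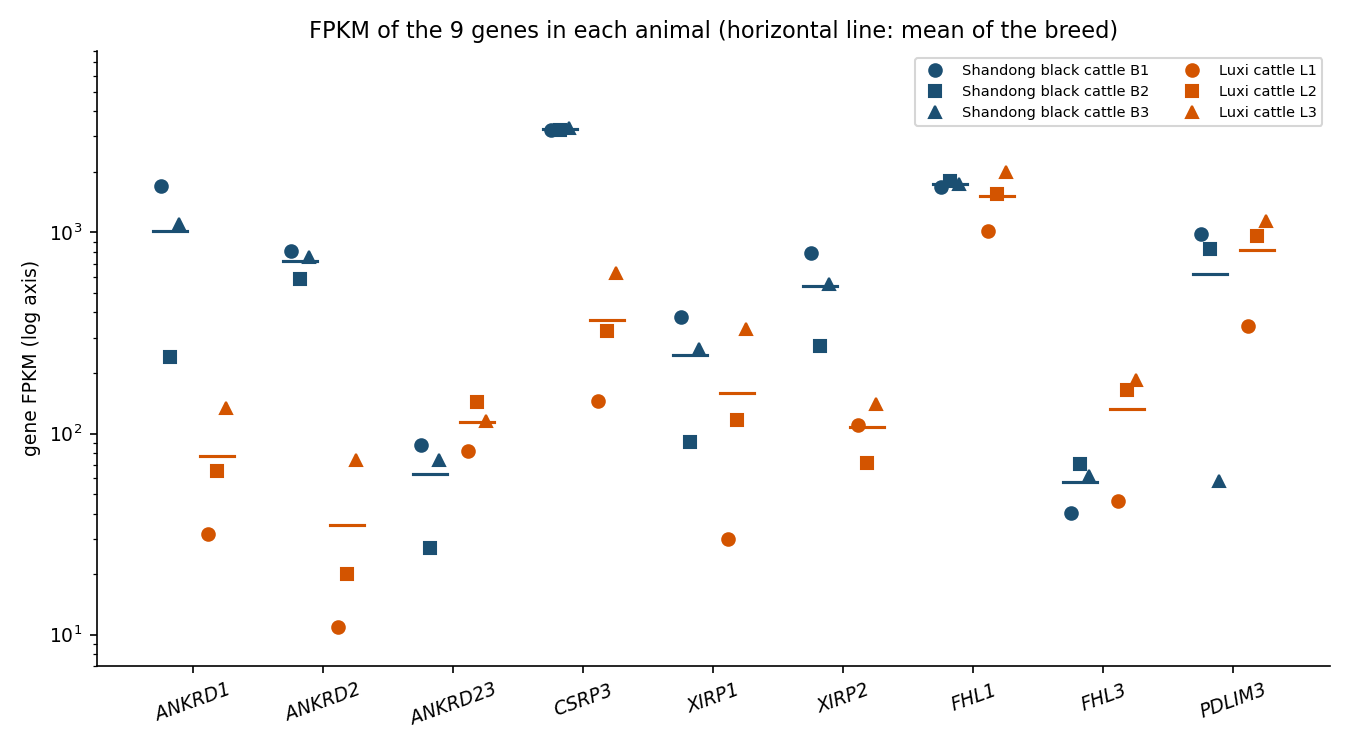
Gene FPKM (log axis) of the 9 genes in each of 3 Shandong black and 3 Luxi animals, with the mean of each breed as a horizontal line. The Luxi points of *ANKRD1*, *ANKRD2*, *CSRP3* and *XIRP2* lie below all Shandong black points, and those of the other 5 genes overlap with them.

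*ANKRD2* is the titin-binding ankyrin repeat gene of slow skeletal fibres. It lies on the forward strand of chromosome 26 (ARS-UCD1.2, chr26:18762356-18771322), with 1 reference transcript of 9 exons. Its FPKM was 811 in B1, 586 in B2 and 757 in B3, and 10.9 in L1, 19.9 in L2 and 74.2 in L3. The Shandong black animals were close to each other, whereas L3 stood 6.77 times above L1, and even so the lowest Shandong black value was 7.91 times the highest Luxi value. The means were 718 ± 117 and 35.0 ± 34.2 FPKM (SD, n = 3 per breed), a log2 difference of -4.74 (SE 0.64), the largest of the 9 genes. The read depth was lower in every Luxi animal over 9 of 9 exons (reference exons, merged where they overlap), with log2 ratios from -4.70 to -3.90, so the difference ran along the whole transcript.

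*ANKRD1* encodes the cardiac ankyrin repeat protein and lies on the reverse strand of the same chromosome (chr26:12533108-12542479), also with a single reference transcript of 9 exons. Its FPKM was 1698 in B1, 241 in B2 and 1106 in B3, and 31.6 in L1, 65.4 in L2 and 135 in L3. The breeds did not overlap, but B2 lay nearer to L3 than to B1, with a ratio of 1.79 between B2 and L3 against 7.05 between B1 and B2. The means were 1015 ± 733 and 77.2 ± 52.5 FPKM (SD, n = 3 per breed), with a log2 difference of -3.53 (SE 0.81) and a leave-one-out range of -4.37 to -2.96. Over 8 of its 9 exons the Luxi animals were all below the Shandong black ones. The exception was the first exon, of 86 bases, where the depth per gigabase was 42.9 in B2 and 52.7 in L3.

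*ANKRD23*, the third titin-binding gene of this family, behaved otherwise. It lies at chr11:2799810-2806002 on the reverse strand. Its FPKM was 87.4 in B1, 27.1 in B2 and 73.7 in B3, and 82.1 in L1, 143 in L2 and 115 in L3. Only L1 fell within the range of the Shandong black animals. The means were 62.7 ± 31.6 and 114 ± 30.6 FPKM (SD, n = 3 per breed), and the log2 difference was 0.97 (SE 0.47), of the opposite sign to the other ankyrin repeat genes. Over 3 of its 10 exons, the first, the third and the last, the Luxi animals were all above the Shandong black ones, and over the 5 exons in the run from the fifth to the ninth the log2 ratios lay between -0.051 and 0.31. From 19.1 to 79.2% of its FPKM in an animal came from reference transcripts and the rest from assembled ones that followed the same exons.

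The summed FPKM of the ankyrin repeat genes was 2596, 854 and 1937 in B1 to B3 and 125, 229 and 324 in L1 to L3, without overlap and with a 7.95-fold ratio of the means. The make-up of this sum also differed. *ANKRD23* was 3.17 to 3.80% of it in Shandong black cattle and 35.6 to 65.9% in Luxi cattle, and *ANKRD2* was 31.2 to 68.6% and 8.72 to 22.9%. The share of *ANKRD1* overlapped, at 28.2 to 65.4% against 25.3 to 41.5%. For each FPKM of *ANKRD2* there were 0.0462 to 0.108 FPKM of *ANKRD23* in Shandong black cattle and 1.56 to 7.51 in Luxi cattle, so the order of this pair was inverted between the breeds in every animal.

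**Figure D2:**
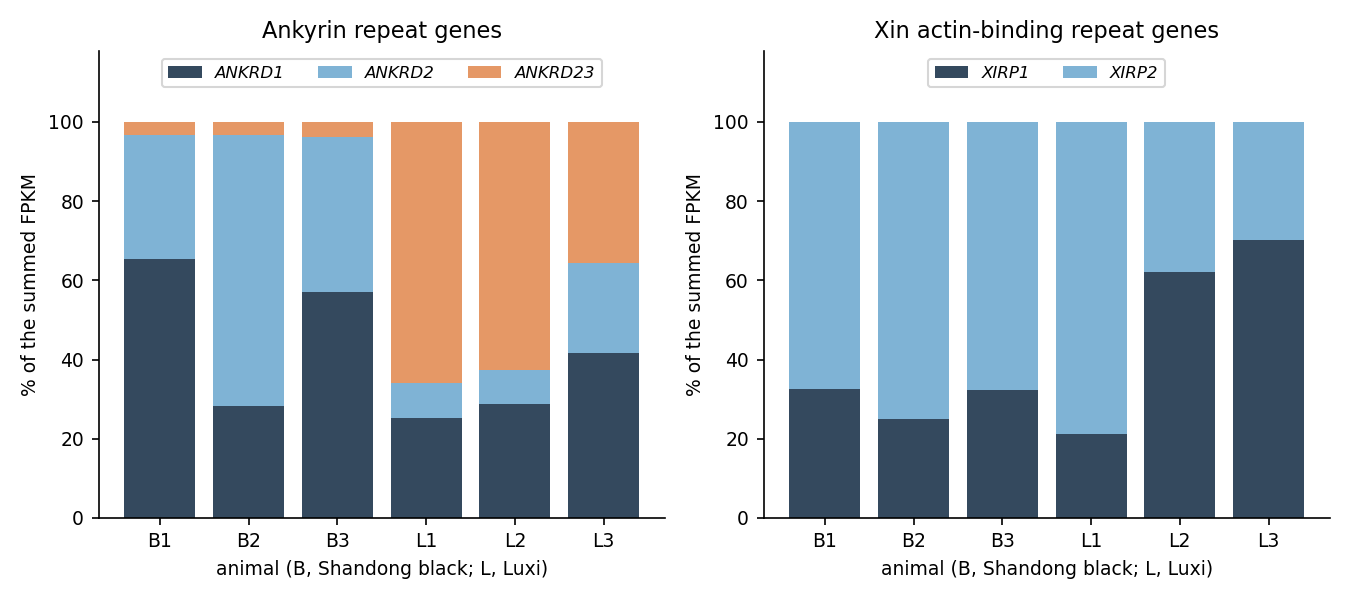
Share of each gene (% of the summed FPKM) among the ankyrin repeat genes and among the Xin genes in each animal. *ANKRD23* takes 3.17 to 3.80% of the ankyrin repeat sum in B1 to B3 and 35.6 to 65.9% in L1 to L3, whereas *XIRP1* passes *XIRP2* in L2 and L3 only.

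*CSRP3* encodes the muscle LIM protein of the Z-disc. It lies at chr29:25744235-25764912 on the forward strand, with 1 reference transcript of 6 exons. It was the most abundant of the 9 genes in Shandong black cattle, at 3213 FPKM in B1, 3226 in B2 and 3309 in B3, and was at 146 in L1, 325 in L2 and 627 in L3. The Shandong black animals had a coefficient of variation of 1.60%, the smallest among the 9 genes in that breed, while the Luxi animals spread over 4.30-fold (coefficient of variation 66.4%). The means were 3249 ± 52.1 and 366 ± 243 FPKM (SD, n = 3 per breed), the log2 difference was -3.39 (SE 0.56), and the lowest Shandong black animal was 5.13 times the highest Luxi animal. All 6 exons were lower in each Luxi animal, with log2 ratios from -3.44 to -2.96. Among all genes tested, ordered by mean FPKM, *CSRP3* took place 9 in Shandong black cattle and place 79 in Luxi cattle.

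The Xin genes *XIRP1* and *XIRP2* encode actin-binding repeat proteins of the intercalated discs of the heart and the tendon attachments of skeletal fibres. *XIRP2* (chr2:28988604-29067347, reverse strand) was at 793 FPKM in B1, 272 in B2 and 553 in B3, and at 110.4 in L1, 71.8 in L2 and 140.4 in L3. The breeds did not overlap, and B2 was again the animal of its breed nearest to the Luxi values, at 1.93 times L3. The means were 539 ± 261 and 107.5 ± 34.4 FPKM (SD, n = 3 per breed), with a log2 difference of -2.24 (SE 0.47). Its 9 exons all separated the breeds, with log2 ratios from -2.84 to -2.23.

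*XIRP1* (chr22:12509227-12518465, reverse strand) did not separate the breeds. Its FPKM was 382 in B1, 90.6 in B2 and 265 in B3, and 29.8 in L1, 117 in L2 and 331 in L3. L3 was above B2 and B3, and L1 was the lowest of the 6 animals. The log2 difference was -0.98 (SE 0.90) and ranged from -1.80 to -0.086 when 1 animal was left out, the last of these without L1. For each FPKM of *XIRP1* there were 2.08 to 2.998 FPKM of *XIRP2* in Shandong black cattle, while in Luxi cattle the ratio was 3.70 in L1, 0.612 in L2 and 0.424 in L3. The Xin genes thus kept a narrow ratio in one breed and a wide one in the other, and the ranges overlapped.

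*FHL1* and *FHL3* encode LIM-only proteins that bind actin, integrins and transcription factors. *FHL1*, an X-linked gene in people and mice, lies here on a scaffold not placed on a chromosome (NW_020192292.1, 8690290 to 8712007, reverse strand). Its FPKM was 1688 in B1, 1804 in B2 and 1743 in B3, and 1019 in L1, 1546 in L2 and 2007 in L3. The Luxi values lay on both sides of the Shandong black values. The means were 1745 ± 58.3 and 1524 ± 494 FPKM (SD, n = 3 per breed), and the log2 difference of -0.25 (SE 0.42) was within the spread between animals. Of its 11 reference transcripts, 1 of 6 exons and 1915 bases carried 84.4 to 90.7% of the gene FPKM in every animal. The part of the *XIST* difference in this gene was not tested.

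*FHL3* (chr3:107958890-107967123, forward strand) was at 40.3 FPKM in B1, 70.7 in B2 and 61.4 in B3, and at 46.3 in L1, 164 in L2 and 185 in L3. L2 and L3 were above all Shandong black animals, and L1 was inside their range. The log2 difference was 0.99 (SE 0.55), with a leave-one-out range of 0.63 to 1.62. There were 25.5 to 41.8 FPKM of *FHL1* for each FPKM of *FHL3* in Shandong black cattle and 9.43 to 22.0 in Luxi cattle, without overlap, although neither gene separated the breeds by itself.

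*PDLIM3* encodes the actinin-associated LIM protein, a PDZ and LIM domain protein of the Z-disc (chr27:15712674-15743838, reverse strand). Its gene FPKM was 985 in B1, 831 in B2 and 58.0 in B3, and 341 in L1, 962 in L2 and 1138 in L3. B3 was 17.0-fold below B1, the widest spread within a breed among the 9 genes. The log2 difference was 0.98 (SE 1.09) and ranged from -0.33 to 1.70 when 1 animal was left out, with the negative value without B3. The value depended on how StringTie divided the reads among transcripts. In B2, 828 of the 831 FPKM belonged to an assembled transcript with 98.2% of its bases on the exons of *PDLIM3*, which started at the gene and ran on to 15648270, and the reference transcripts held 0.37% of the gene FPKM. In B3, an assembled transcript of 4974 bases with 255 FPKM was left out of the sum, since 31.2% of its bases lay on the exons and 50% were required. Among the 9 genes the kept assembled transcript nearest to that limit was one of *ANKRD2* in L1, at 54.8% and 1.7 FPKM, and the nearest one left out was another of *ANKRD2* in L1, at 43.5% and 1.0 FPKM.

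The depth over the reference exons, which counts every transcript of the strand and does not depend on this division, gave 876, 605 and 639 per gigabase for *PDLIM3* in B1 to B3 and 311, 879 and 1036 in L1 to L3. B3 then lay within its breed, and the log2 difference was -0.086 (SE 0.51). Reference transcripts alone gave 3.55 on the log2 scale. The other 8 genes changed little, with *XIRP1* at -0.79 and *ANKRD23* at 0.93 by depth.

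**Figure D3:**
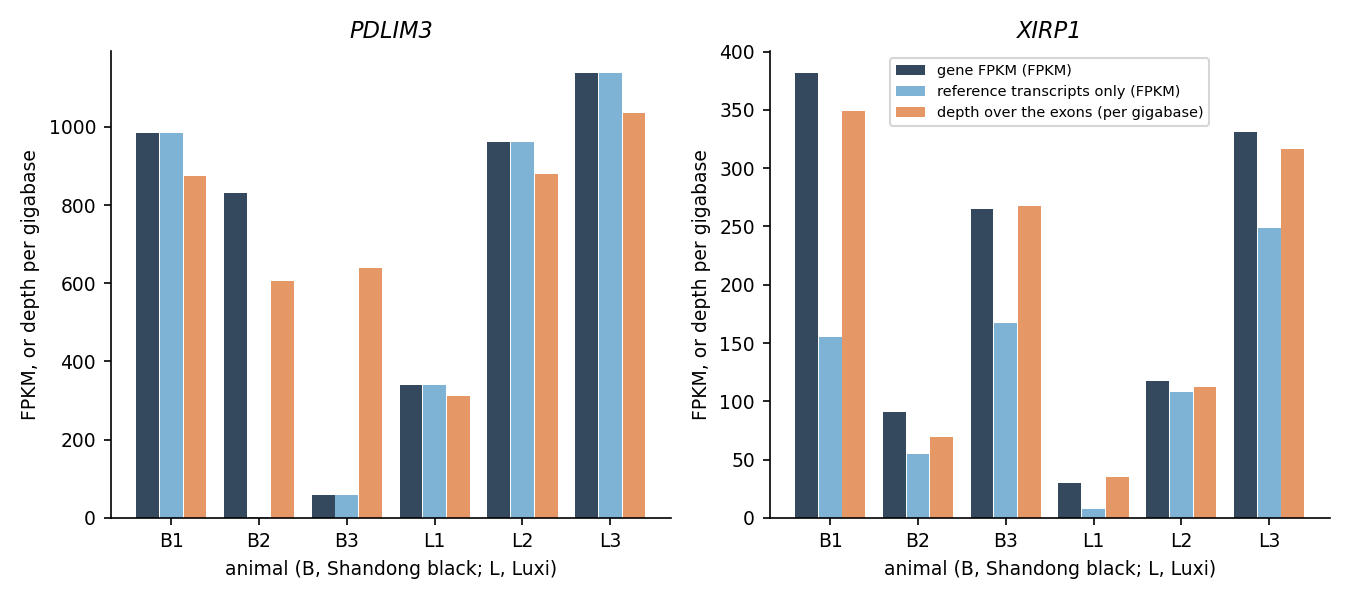
Gene FPKM, FPKM of the reference transcripts alone and mean depth over the reference exons per gigabase, for *PDLIM3* and *XIRP1* in each animal. For *PDLIM3* the bars of B2 and B3 differ strongly (831 FPKM and 605 per gigabase in B2, 58.0 FPKM and 639 per gigabase in B3), whereas for *XIRP1* the gene FPKM and the depth stay close.

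**Figure D4:**
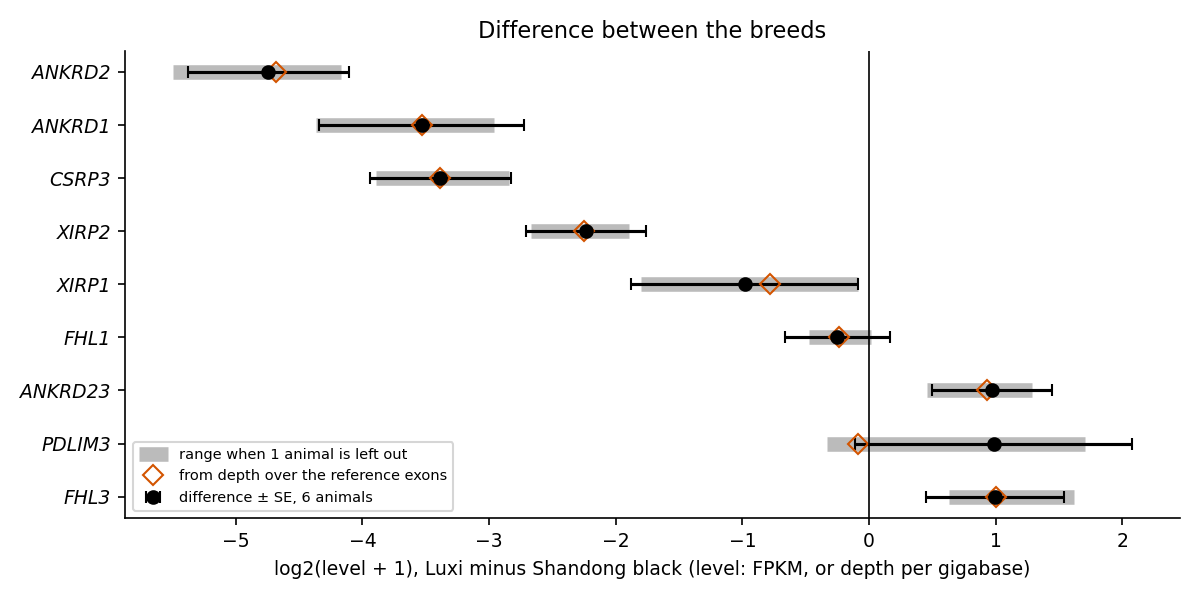
Difference between the breeds for each of the 9 genes on the log2 scale (Luxi minus Shandong black), as the value from 6 animals with its SE, the range when 1 animal is left out (grey) and the value from the depth over the reference exons (diamond). The grey ranges of *ANKRD1*, *ANKRD2*, *CSRP3* and *XIRP2* stay below 0, from -5.49 to -1.89, while those of *FHL1* and *PDLIM3* cross it.

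FPKM is scaled to transcript length, so the levels of the genes can be set in order. In Shandong black cattle the order of the mean FPKM was *CSRP3*, *FHL1*, *ANKRD1*, *ANKRD2*, *PDLIM3*, *XIRP2*, *XIRP1*, *ANKRD23* and *FHL3*. Only *CSRP3* against *FHL1* and *XIRP1* against *ANKRD23* were neighbours whose animals did not overlap. In Luxi cattle the order was *FHL1*, *PDLIM3*, *CSRP3*, *XIRP1*, *FHL3*, *ANKRD23*, *XIRP2*, *ANKRD1* and *ANKRD2*, with overlap between the ranges of all neighbours. Compared within an animal, *FHL1*, *PDLIM3*, *CSRP3*, *XIRP2* and *ANKRD1* were each above the next gene of this order in all 3 Luxi animals. In the same way, *XIRP2* was above *XIRP1* in all 3 Shandong black animals. *FHL1* was 0.525 to 0.559 times *CSRP3* in Shandong black cattle and 3.20 to 6.99 times *CSRP3* in Luxi cattle. The 9 genes together amounted to 9698, 7148 and 7926 FPKM in B1 to B3 and to 1817, 3415 and 4753 FPKM in L1 to L3, and *CSRP3* alone was 33.1 to 45.1% and 8.03 to 13.2% of this sum.

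The Luxi animals also differed in a like manner over several of these genes. L1 was the lowest Luxi animal in 8 of 9 genes and L3 the highest in 8 of 9, against 47.1% and 35.4% of all genes tested. Among Shandong black cattle, B2 was the lowest in 5 of 9 and B1 the highest in 6 of 9, against 44.9% and 39.2% of all genes. The count of B2 was near its share of all genes, so it is not read as a trait of the 9 genes. L1 was also the library with the lowest *ACTA1* (12237 FPKM, against 32188 to 54910 in the others) and with the largest share of FPKM in assembled transcripts outside the gene sums (29.8%, against 21.6 to 28.2%). Their part in the low values of L1 was not tested. Without L1 the median log2 difference of the 9 genes was -0.086.

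For the 8 genes whose log2(FPKM + 1) spanned at least 2 over the animals, the tested genes with the most similar profile were looked up, by the root mean square difference of the centred profiles over the 6 animals. Nearest to *ANKRD1* were *HBEGF* (0.34), *ENAH* (0.42) and *C15H11orf52* (0.46). Nearest to *ANKRD2* were *FABP4* (0.53), *MYBPH* (0.58) and *ACTC1* (0.62), with *CSRP3* at place 4 (0.74) and *ANKRD1* at place 8 (0.97). Nearest to *CSRP3* were *FABP4* (0.33), *CIDEC* (0.36) and *TRARG1* (0.40). Each of these genes was higher in Shandong black cattle, and the profiles share the same 6 libraries.

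Nearest to *XIRP2* were *DNAJA4* (0.11), *GDF11* (0.14) and *LOC104975593* (0.20), and nearest to *XIRP1* were *JSP.1* (0.39), *RUNX1* (0.47) and *PDE4D* (0.51). *XIRP2* was only at place 1932 in the order of likeness to *XIRP1*. Nearest to *FHL3* were *CACNG1* (0.10), *MYOZ1* (0.18) and *CDC34* (0.18), and nearest to *ANKRD23* were *DUSP3* (0.10), *RAB12* (0.14) and *TIPRL* (0.15). *ANKRD2* was at place 9774 of 9780 in likeness to *ANKRD23*, and *ANKRD23* at place 9150 in likeness to *ANKRD2*. *ANKRD2* was also near the end of the order for *FHL3* (place 9773) and *PDLIM3* (place 9771). The profiles were centred but not scaled, so a gene that varies widely falls late in the order of one that varies little. The root mean square of the own profile was 2.50 for *ANKRD2*, 0.74 for *ANKRD23*, 0.84 for *FHL3* and 1.51 for *PDLIM3*. The late places of *ANKRD2* are therefore not read as opposed profiles. For *PDLIM3* the nearest genes, *LOC100140431* (0.41), *USP22* (0.57) and *VAPB* (0.60), were also lowest in B3, the animal whose gene FPKM depended on the assembly.

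Other genes of the same structures and pathways were taken as 6 lists of titin and Z-disc partners, other LIM genes, other ankyrin repeat genes, mechanosensitive transcription factors, YAP and SRF targets, and calpain and ubiquitin partners of titin. Of 87 names, 81 were found and 76 tested, and 3 were called (3.95%, beside the 2.57% of all genes), all higher in Luxi cattle. The median log2 difference of the 76 was 0.18. For each list below, the number of genes at an unadjusted p under 0.05 by limma is given for description. The share of all genes at that level is not given beside it, so nothing is read from these numbers.

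*MYOZ3*, a calcineurin-binding Z-disc gene of fast fibres, was at 2.09, 8.22 and 4.35 FPKM in B1 to B3 and at 39.5, 34.7 and 27.7 FPKM in L1 to L3 (log2 difference 2.70, adjusted p = 0.024). In the list of titin and Z-disc partners, 1 of 17 genes tested was called and 4 were at an unadjusted p under 0.05, with a median log2 difference of -0.38. In 3 of the 17, *MYOZ2*, *FLNC* and *MYOT*, the Luxi values were all below the Shandong black values, beside 9.13% of all genes. *MYOZ2*, the slow fibre relative of *MYOZ3*, was at 440 to 818 FPKM in Shandong black cattle and 20.6 to 244 FPKM in Luxi cattle (log2 difference -2.87, adjusted p = 0.11), *FLNC* was at -1.29 (adjusted p = 0.23) and *MYOT* at -0.57 (adjusted p = 0.31). The titin gene *TTN* was at a log2 difference of -0.047 (adjusted p = 0.96), and *MYPN*, whose protein binds the ankyrin repeat proteins at titin, was at 0.042 (adjusted p = 0.95).

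Among the other ankyrin repeat genes, *ASB11* and *ANKRD9*, substrate adaptors of ubiquitin ligases, were called. *ASB11* was between 3.14 and 4.97 FPKM in Shandong black cattle and between 12.0 and 26.1 FPKM in Luxi cattle (log2 difference 1.97, adjusted p = 0.029). *ANKRD9* was between 0.860 and 1.34 FPKM and between 5.41 and 7.615 FPKM (log2 difference 1.84, adjusted p = 0.009). In 7 of the 16 genes of this list the Luxi values were all above the Shandong black values, which was the case for 20% of all genes tested, and in 0 of 16 were they all below (9.13% of all genes). When 1 animal was left out, *MYOZ3* was called in 2 of 6 fits (without B2 and without L1), *ASB11* in 1 (without L1) and *ANKRD9* in 4 (not without B1 or B3).

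None of the 11 other LIM genes tested was called by limma, with 4 at an unadjusted p under 0.05. *FHL2*, the heart member of the FHL family, was low in both breeds, at 1.15 to 1.93 FPKM and 3.81 to 15.0 FPKM (log2 difference 1.83, adjusted p = 0.062). *PDLIM7* was at 72.2 to 88.1 FPKM and 50.7 to 613 FPKM (log2 difference 1.54, adjusted p = 0.34). None of 12 mechanosensitive transcription factors was called, with 6 at an unadjusted p under 0.05, and *MKL1* (1.13, adjusted p = 0.11) and *MEF2D* (0.98, adjusted p = 0.13) had the largest log2 differences.

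None of 12 YAP and SRF targets was called, with 4 at an unadjusted p under 0.05. *TPM1* (log2 difference 3.05, adjusted p = 0.11) was the largest, and *AMOTL1* (0.91, adjusted p = 0.048) missed the limit on the size of the difference. None of 8 calpain and ubiquitin partners was called, with 2 at an unadjusted p under 0.05. *TRIM54*, a titin-binding ubiquitin ligase, was at 106 to 182 FPKM in Shandong black cattle and 47.7 to 61.3 FPKM in Luxi cattle (log2 difference -1.43, adjusted p = 0.051). It was called lower in 8 of 17 alternatives, for example with size factors (adjusted p = 0.036) and from depth (adjusted p = 0.038). *TRIM63* was at 1.16 (adjusted p = 0.14).

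**Figure D5:**
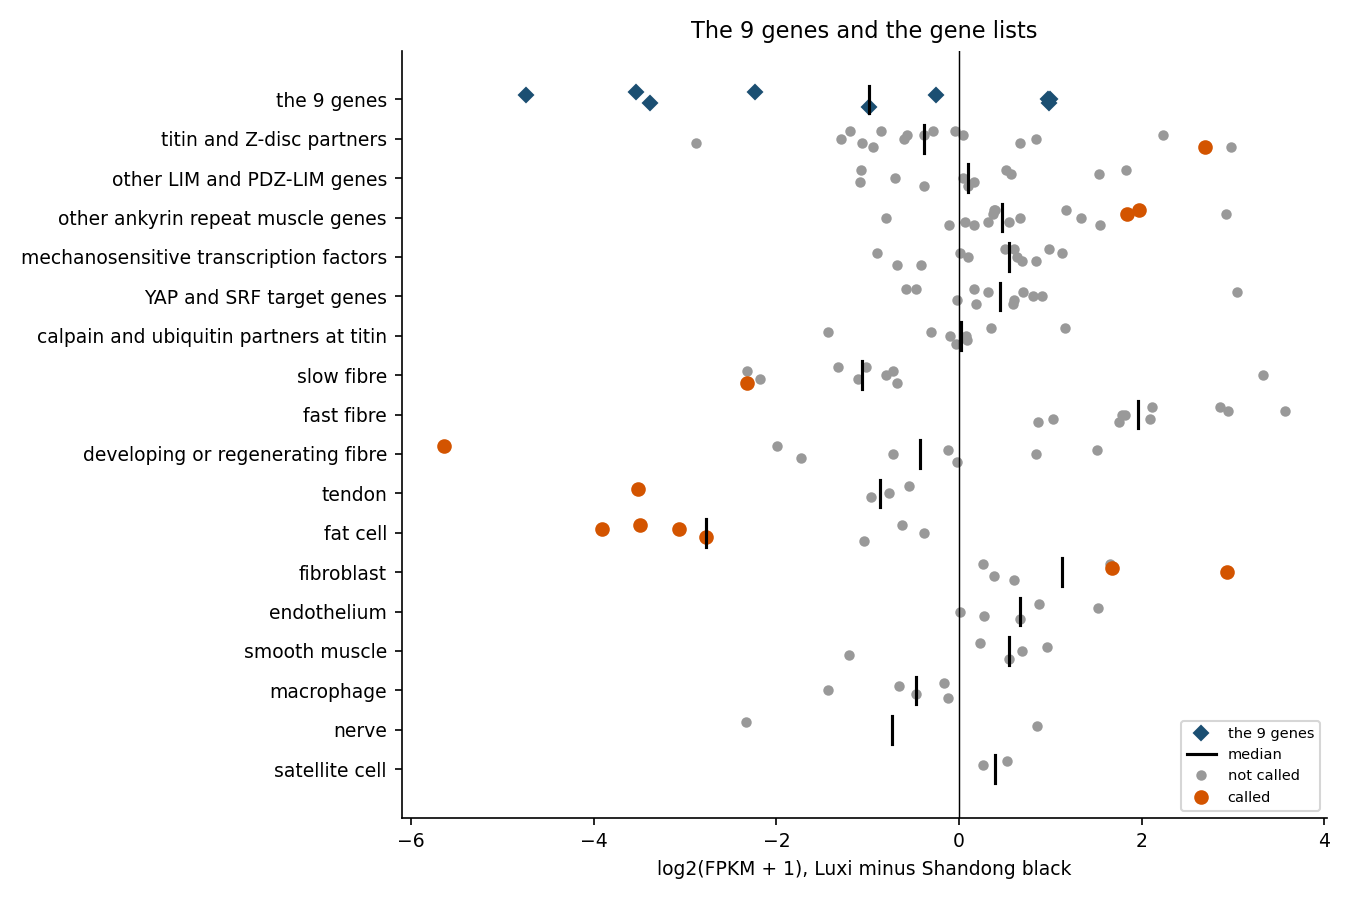
Log2 differences (Luxi minus Shandong black) of the 9 genes (diamonds) and of the tested genes of each list (grey, not called; orange, called), with the median of each list as a vertical line. The median of the 9 genes is -0.98, that of the slow fibre list -1.06, that of the fast fibre list 1.96 and that of the fat cell list -2.78.

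Some markers of fibre types and of other cells also differed between the breeds. The slow fibre list of 10 genes added up to 26577 to 32828 FPKM in Shandong black cattle and to 3431 to 13872 FPKM in Luxi cattle, with *MYL2* as the largest part in every animal. *TNNI1* was the only one of the 10 that was called (log2 difference -2.32, adjusted p = 0.047), and *MYL3* had the opposite sign (3.33, adjusted p = 0.12). *TNNI1* was not called in 8 of 17 alternatives, and with reference transcripts only it was at -1.20 (adjusted p = 0.19). *MYH7*, the slow myosin heavy chain, was at -1.01 (adjusted p = 0.54) as FPKM and at -2.50 (adjusted p = 0.014) by depth over the exons. Of 10 fast fibre genes 0 were called by limma, with 5 at an unadjusted p under 0.05, and *MYH2* (3.57, adjusted p = 0.14) and *TNNT3* (2.95, adjusted p = 0.10) had the largest differences. *MYH2* was at 1.35 with reference transcripts only and at 3.41 by depth. The fast fibre sums were 3654 to 5993 FPKM and 5065 to 31642 FPKM, with L1 inside the range of Shandong black cattle. These sums depended on how the reads were divided among transcripts. *TNNC2* was at 220 FPKM in B2 and 129 FPKM in L1, while its depth was 1443 and 1491 per gigabase. The sums were not repeated by depth, so the place of L1 is given for FPKM only.

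Per 1000 FPKM of the slow fibre list, *ANKRD2* amounted to 24.7, 22.1 and 26.4 FPKM in B1 to B3 and to 0.843, 5.81 and 5.35 FPKM in L1 to L3, so it stayed lower in each Luxi animal. *CSRP3* amounted to 97.9, 121 and 115 FPKM and to 11.2, 94.8 and 45.2 FPKM, with L2 next to B1. On this scale *ANKRD1* (9.06 to 51.7 FPKM in Shandong black cattle and 2.43 to 19.1 FPKM in Luxi cattle) and *XIRP2* (10.2 to 24.2 FPKM and 8.50 to 20.9 FPKM) overlapped between the breeds. *FHL1*, *FHL3* and *ANKRD23*, which overlapped as FPKM, were higher in each Luxi animal per 1000 FPKM of slow fibre genes. The slow fibre sum was lower in each Luxi animal, and lowest in L2 (3431 FPKM). A gene of unchanged FPKM therefore rises on this scale by construction. In whole muscle, fewer fibres of a type and less RNA per fibre cannot be told apart.

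Of the 8 genes tested for developing or regenerating fibres, *ACTC1*, the cardiac actin of early fibres, was called (log2 difference -5.64, adjusted p = 0.015), with 278 to 946 FPKM in Shandong black cattle and 5.53 to 26.7 FPKM in Luxi cattle. The rest of this list went both ways, and its median log2 difference was -0.42. *MYH8* was at 1.51 (adjusted p = 0.75) and *TNNT2* at 0.84 (adjusted p = 0.15), while *MYOG* was at -1.99 (adjusted p = 0.25) and *NES* at -1.73 (adjusted p = 0.13). Of 7 fat cell markers, *FABP4* (-3.90, adjusted p = 0.019), *ADIPOQ* (-3.50, adjusted p = 0.037), *PLIN1* (-3.06, adjusted p = 0.007) and *CIDEC* (-2.78, adjusted p = 0.022) were called, and the list summed to 129 to 197 FPKM and 14.9 to 37.3 FPKM. Of 4 tendon markers *COMP* was called lower (-3.52, adjusted p = 0.036), with *SCX* and *MKX* under the limit of 1 FPKM. Of 6 fibroblast markers *COL3A1* (2.94, adjusted p = 0.007) and *COL1A2* (1.67, adjusted p = 0.032) were called higher, with sums of 113 to 169 FPKM and 384 to 511 FPKM. Of these calls, only *PLIN1* held in all 6 fits that left out 1 animal.

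None of the tested endothelial (5), smooth muscle (5), macrophage (5), nerve (2) and satellite cell (2) markers was called by limma, with 2, 2, 2, 2 and 0 at an unadjusted p under 0.05, and the blood genes were under 1.34 FPKM in sum. The largest differences were those of *CDH5* (1.52, adjusted p = 0.077) and *PECAM1* (0.87, adjusted p = 0.18), *DES* (-1.20, adjusted p = 0.46) and *MYH11* (0.97, adjusted p = 0.23), *C1QA* (-1.43, adjusted p = 0.19) and *CSF1R* (-0.66, adjusted p = 0.14), *S100B* (-2.33, adjusted p = 0.083) and *MBP* (0.86, adjusted p = 0.090), and *MYF5* (0.53, adjusted p = 0.24) and *CDH15* (0.27, adjusted p = 0.68). The part of fibre types and of these cells in the differences of *ANKRD1*, *ANKRD2*, *CSRP3* and *XIRP2* was not tested.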

How the data were processed

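Muscle RNA of each animal was sequenced as a library of its own. In the processing by the authors, fastp trimmed the reads, HISAT placed them on ARS-UCD1.2 and StringTie assembled each library separately (version 1.3.3b per the file headers, while the paper names a later one). The values deposited for every transcript are coverage, FPKM and TPM. An absent transcript was counted as 0.

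Gene FPKM was computed here for 18010 genes as the sum of the reference transcripts and of those assembled transcripts of its strand that had 50% or more of their length on its exons. Assembled transcripts outside these sums held 21.6 to 29.8% of the FPKM of a library, and a gene assembled in that way is underestimated. The aligned bases were computed as coverage over FPKM. The depth over the reference exons was added after the values of *PDLIM3* had been seen. The 9781 genes whose mean reached 1 FPKM in either breed were fitted with limma 3.58.1 in R 4.3.3 (lmFit, eBayes with trend) on log2(FPKM + 1), with Benjamini-Hochberg adjustment over all of them. Calls required an adjusted p of under 0.05 and a log2 difference of 1 or more in size. Differences on this scale understate those of low genes. The fit was also run by simulation, with 200 of the 9781 genes changed by 1.5, 3 or 5 on the log2 scale. There the fit called 68.0%, 93.0% and 97.5% of these, with 7, 3 and 3 unchanged genes called. Whether these shares hold for the animals of the study was not tested. Cuffdiff, which the authors used, works on alignments and was not run. No counting error can be given for these values, and the number of animals limits their precision.

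The genes named are the 9 genes, the called genes of each list or its 2 largest differences, and the 3 genes nearest in profile. Others, such as *TTN*, *MYPN*, *MYOZ2*, *FLNC*, *MYOT*, *MYL3*, *MYH7*, *MYH8*, *TNNT2*, *MYOG* and *NES*, were chosen after their values were seen. The 9 genes and all lists were chosen with earlier results of these data known. *FHL5*, *TEAD4*, *VWF*, *SOX10*, *ALAS2*, *HBM* and *PAX7* were not matched by name and were not analysed here, and *MKL1*, *MKL2*, *CYR61* and *CTGF* stood for newer names. Python 3.11.15 with pandas 2.3.3 was used.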

Additional observations from a re-analysis of the deposited data

Results flagged for a closer look

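In B3, a transcript assembled at *PDLIM3* carried 255.5 FPKM that did not enter the gene sum, more than the 58.0 FPKM that did. It had 31.2% of its bases on the exons of the gene.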

How the results depend on the processing

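In all 18 alternatives the log2 difference was negative for *ANKRD1*, *ANKRD2*, *CSRP3*, *XIRP1* and *XIRP2* and positive for *ANKRD23* and *FHL3*. *FHL1* was positive in 1 of 18 (0.014, without L1), and *PDLIM3* was negative in 2 (-0.33 without B3, -0.086 from depth) and reached 3.55 with reference transcripts only. The number of genes called, 251 as reported, was 47 without a filter on FPKM, 134 with a mean of at least 5 FPKM and 163 with reference transcripts only. Of the list genes, limma called 3 instead of 12 without the filter (*ANKRD9*, *COL3A1* and *PLIN1*). *MEF2D*, not called, turned to -0.29 with reference transcripts only. Of the 12 list genes called, *PLIN1* held in all 17 alternatives, *MYOZ3* and *COMP* in 12, *ASB11* in 11, and *ADIPOQ* and *TNNI1* in 9. *TRIM54* was called in 8, *FHL2* in 3. The cause of these changes was not tested.

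The 251 calls were 151 higher and 100 lower in Luxi cattle, but 113 and 137 with size factors and 124 and 164 with quantile normalization, which moved the median difference of all genes from 0.13 to 0.023 and 0.003.

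Leaving out 1 animal gave 3 to 593 called genes (10 without B1, 182 without B2, 3 without B3, 593 without L1, 44 without L2 and 86 without L3). Of the 9 genes, 0 to 3 were called, with 0 without B1, B3 or L2, and nothing is read from these counts. Their median log2 difference ranged from -1.80 to -0.086 (-0.55 without B1, -1.58 without B2, -0.086 without L1 and -1.80 without L3). Of the list genes, 1 to 32 were called, with 1 without B1 or B3 (*PLIN1*), 9 without B2, 32 without L1, 4 without L2 and 7 without L3. *PLIN1* was called each time, *ANKRD9* and *COL3A1* in 4 of 6, and *ASB11*, *ADIPOQ* and *COL1A2* in 1 of 6, without L1.

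The same replicate numbers mark different animals. With the number as a replicate block, 135 genes were called by limma, while *ADIPOQ* (adjusted p = 0.060) and *TNNI1* (adjusted p = 0.070) were no longer called. Same-numbered animals had correlations of their deviations of 0.075 to 0.087, too weak to take the numbers as pairs, although each was the highest of its library, a hint from the data and not from the design.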
